A study of Mus musculus with 6 samples.

Results

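The subunits of the oxidative phosphorylation machinery were taken from the deposited gene counts by their symbols: the Nduf subunits of complex I, Sdha to Sdhd of complex II, the Uqcr genes of complex III, the Cox4 to Cox8 genes of complex IV, the Atp5 genes of complex V, and the Nd, Co, Atp and Cytb genes of the mitochondrial genome. The rule picked 99 of the 34590 rows. They comprised 73 nuclear genes for widely expressed subunits, called core subunits here, 13 mitochondrially encoded subunits, 9 nuclear isoforms with restricted tissue expression, 3 genes that share the name stem but are not subunits (Atp5s, Atp5sl and Cox7a2l) and 1 pseudogene. Ndufa4 was counted with complex IV, where its protein resides.

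The libraries came from 3 pairs of contralateral inguinal glands (gland number 4) of WT female hosts whose fat pads had been cleared of their own epithelium and grafted at 3 weeks of age. In each host, numbered mouse 1 to 3, the left gland had received WT.EGFP+ epithelium and the right gland Adamts18-/-.EGFP+ epithelium, so that body side and genotype cannot be told apart. All donors, controls included, carried an EGFP transgene under the chicken beta-actin promoter, the mutant allele lacked exons 8 and 9 of Adamts18, which encodes a secreted protease, and the stroma of every gland was the host's. The age at harvest of these glands is not given in the sources used here. The labels speak of GFP+ mammary epithelial cells purified by FACS, while the study's text speaks of profiled glands, and the libraries are called glands below.

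Oxidative phosphorylation is the route by which mitochondria turn the electrons of NADH and succinate into ATP. Complexes I, III and IV pass electrons to oxygen and pump protons across the inner membrane, complex II feeds in electrons from succinate without pumping, and complex V lets the protons flow back to make ATP. All complexes but complex II combine proteins of both genomes. In the mammary gland the epithelium, the adipocytes around it and neighboring muscle all respire, and a few complex IV subunits exist as alternative isoforms of which Cox6a2, Cox7a1 and Cox8b are best known from heart, skeletal muscle and, for Cox7a1 and Cox8b, brown fat.

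Promoter sequences of 3 widely expressed genes and 1 isoform are printed because their CG content and factor motifs are compared here. They are taken from RefSeq on GRCm38.p6, read 5′ to 3′ on the gene's strand, and cover the 250 bases before the annotated start. Capitals in the Cox6a1 and Sdhd lines mark the letters GCGCANGCG, the core of the binding site of NRF1, a regulator of respiratory chain genes, and CCGGAAG, an ETS family site, on either strand. The palindromic stretch in Cox6a1 holds overlapping NRF1 matches on both strands. Capitals in the Cox7a2 and Cox7a1 lines mark CG dinucleotides. Cox6a1 (chr5:115348959-115349208, minus strand) encodes the widely expressed partner of Cox6a2, Sdhd (chr9:50603850-50604099, minus strand) a membrane anchor of complex II, Cox7a2 (chr9:79759854-79760103, minus strand) the widely expressed partner of Cox7a1, and Cox7a1 (chr7:30183921-30184170, plus strand) the muscle isoform.
Cox6a1: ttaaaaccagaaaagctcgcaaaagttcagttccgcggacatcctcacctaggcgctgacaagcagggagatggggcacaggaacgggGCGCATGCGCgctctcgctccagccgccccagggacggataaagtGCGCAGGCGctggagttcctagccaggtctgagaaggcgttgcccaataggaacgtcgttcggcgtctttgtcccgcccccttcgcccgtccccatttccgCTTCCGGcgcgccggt
Sdhd: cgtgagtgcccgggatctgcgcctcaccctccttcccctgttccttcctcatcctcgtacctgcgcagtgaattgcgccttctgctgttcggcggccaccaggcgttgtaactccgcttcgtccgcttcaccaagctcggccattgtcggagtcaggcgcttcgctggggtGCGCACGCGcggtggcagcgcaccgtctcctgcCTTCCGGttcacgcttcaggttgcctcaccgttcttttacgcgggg
Cox7a2: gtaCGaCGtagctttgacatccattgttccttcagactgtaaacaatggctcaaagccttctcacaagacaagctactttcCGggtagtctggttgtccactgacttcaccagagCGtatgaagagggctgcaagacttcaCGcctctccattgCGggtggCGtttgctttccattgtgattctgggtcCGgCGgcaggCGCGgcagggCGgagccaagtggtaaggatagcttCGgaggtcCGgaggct
Cox7a1: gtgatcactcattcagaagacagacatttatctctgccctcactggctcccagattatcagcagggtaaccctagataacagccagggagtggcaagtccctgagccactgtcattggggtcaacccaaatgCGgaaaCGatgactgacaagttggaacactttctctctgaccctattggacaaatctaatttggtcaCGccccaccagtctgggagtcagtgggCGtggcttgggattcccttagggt

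Of the core genes, 61 of 73 had a promoter in the table, with 66 promoters among them. The NRF1 core was found in 15 of these, or 22.7%, against 5.16% of the 32851 promoters of all genes. The ETS site was found in 12, or 18.2%, against 6.91%. Among the core genes off chromosome 18, to which this search was limited, Cox6a1, Sdhd, Atp5h and Atp5l held both. The median number of CG dinucleotides was 14 in the core promoters and 6 in all promoters. The Cox7a2 window held 14 and the Cox7a1 window 4, and for the other pair with both promoters Cox8a held 11 and Cox8b 1. The 4 restricted isoforms with a promoter in the table held neither site, nor the MEF2 consensus of muscle promoters, which 2.92% of all promoters held. These are matches of letters in a short window and were not tested for use.

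The total count ranged from 54059023 to 71595924 in WT and from 53875123 to 63307129 in Adamts18-/- glands, and levels are given as CPM, the read count relative to the TMM-scaled library size and expressed per megaread. Levels of a group are listed in the order mouse 1, mouse 2, mouse 3. Adamts18 itself was at 3.61, 9.92 and 6.80 CPM in WT and 2.75, 4.87 and 3.29 CPM in Adamts18-/- glands, lower in each pair. Its log2 fold change was -0.83 with an SE of 0.19, and edgeR's quasi-likelihood test gave an unadjusted p of 0.00922 (adjusted p = 0.99). The labelled cell type was only part of what was sequenced: 11 luminal markers summed to between 1474 and 2548 CPM and 9 myoepithelial markers to between 731 and 1941 CPM, while 10 white adipocyte markers summed to between 11408 and 31058 CPM and 7 fibroblast markers to between 8828 and 12181 CPM. Genes were called different at a fold change below 0.8 or above its reciprocal with an unadjusted p below 0.05, the study's thresholds, in a model with the mouse as a block. Under this rule 5 of 11 luminal markers and 8 of 9 myoepithelial markers were lower in Adamts18-/- glands, beside 1.84% of all tested genes, with log2 fold changes of -0.62 for Krt19, -0.59 for Prlr and -0.52 for Krt18, and of -0.63 for Cnn1, -0.57 for Oxtr and -0.45 for Myh11. In such RNA, fewer cells of a type and less RNA per cell cannot be told apart.

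None of the 73 core subunits was called in either direction, against 1.84% of all 17345 tested genes called lower and 1.17% called higher. All 73 passed the filter on low counts. Their log2 fold changes lay between -0.16 and 0.16 with a median of -0.01, beside a median of 0.00 over all tested genes, and the smallest unadjusted p was 0.138, whereas 3.86% of all tested genes had an unadjusted p below 0.05. The 95% confidence intervals had a median half-width of 0.22 on the log2 scale, and the widest limits over the 73 genes were -0.40 and 0.45. The highest gland exceeded the lowest by a median of 1.21-fold for the core subunits, beside 1.33-fold for the 8836 tested genes within the same range of CPM. No tested gene of any kind had an adjusted p below 0.05 (0% of all tested), with 670 at an unadjusted p below 0.05, while DESeq2 with the same block gave 71 genes and 0 core subunits by adjusted p.

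**Figure D1:**
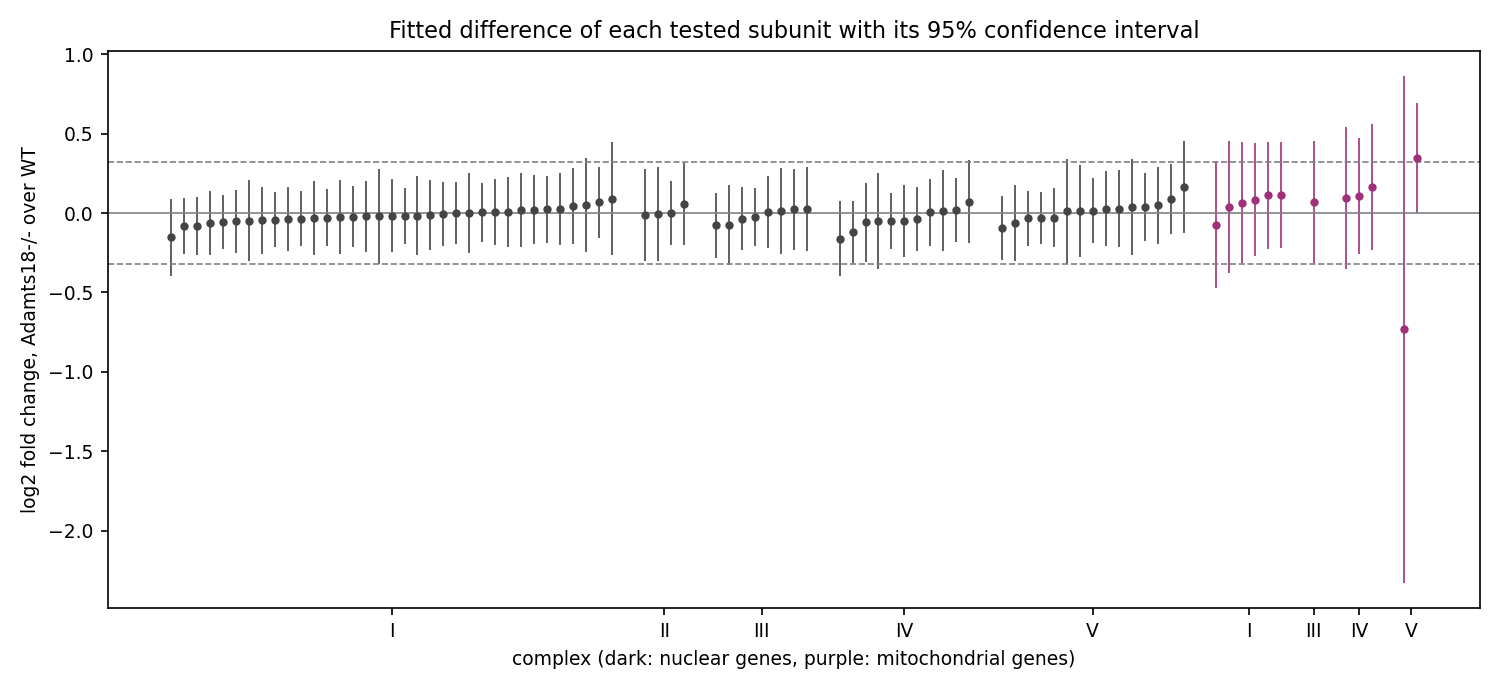
Fitted log2 fold change, Adamts18-/- over WT, of the 73 core nuclear subunits (dark) and the 12 tested mitochondrially encoded subunits (purple), sorted within each complex, with 95% confidence intervals as bars; dashed lines stand at the fold change threshold of 0.8 and its reciprocal. The core subunits lie between -0.16 and 0.16, and only mt-Atp6 at 0.35 passed a fold threshold together with p below 0.05.

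In complex I, which takes electrons from NADH, 35 core genes were measured. The accessory subunit Ndufs5 had the lowest log2 fold change of the complex at -0.15 (SE 0.09, adjusted p = 0.99), with 37.9, 41.6 and 40.1 CPM in WT and 38.6, 36.6 and 32.5 CPM in Adamts18-/- glands. The accessory subunit Ndufc1 had the highest at 0.09 (SE 0.14), with 31.7, 27.7 and 32.8 CPM against 35.5, 35.4 and 27.6 CPM. For both genes the groups overlapped.

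In complex II, Sdha, the flavoprotein that oxidizes succinate, had both the highest level and the lowest log2 fold change of the 4 genes. It was at 474, 415 and 370 CPM in WT and 450, 474 and 333 CPM in Adamts18-/- glands (log2 fold change -0.01, SE 0.11). Sdhd, whose promoter is printed above, was at 128, 107 and 127 CPM against 132, 128 and 116 CPM (log2 fold change 0.06, SE 0.10). Mouse 3 had the lowest Sdha level on both sides, and the difference between genotypes changed its direction from mouse to mouse.

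In complex III, which hands electrons to cytochrome c, the 8 genes had log2 fold changes from -0.08 for Uqcrq, a small accessory subunit, to 0.02 for Uqcrfs1, the Rieske iron-sulfur protein. Uqcrc2, a core protein, was the most abundant by CPM with 196, 175 and 168 in WT and 191, 205 and 155 in Adamts18-/- glands. Uqcrfs1 was at 124, 102 and 115 CPM against 125, 121 and 102 CPM, and Uqcrq at 76.9, 69.7 and 75.3 CPM against 67.3, 72.8 and 70.4 CPM. The ranges of the groups overlapped for all 3 genes.

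In complex IV, which reduces oxygen, Cox8a had the lowest log2 fold change of all 73 core genes, -0.16 (SE 0.09, adjusted p = 0.99). Its levels were 205, 173 and 157 CPM in WT and 163, 167 and 146 CPM in Adamts18-/- glands, lower in each of the 3 mice, with overlapping groups. Cox4i1, the most abundant of the 11 genes by CPM, was at 357, 313 and 330 CPM against 335, 332 and 295 CPM (log2 fold change -0.06, SE 0.10). Cox5a had the highest log2 fold change of the complex, 0.07 (SE 0.10), with 76.0, 62.3 and 88.9 CPM against 75.8, 77.3 and 83.6 CPM.

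In complex V, the ATP synthase, Atp5b, the catalytic beta subunit, was the most abundant core transcript of the 73 by CPM, at 1173, 1045 and 901 CPM in WT and 1102, 1225 and 837 CPM in Adamts18-/- glands (log2 fold change 0.01, SE 0.13). Atp5d, a subunit of the rotating stalk, had the lowest of the 15 log2 fold changes at -0.10 (SE 0.08), with 137, 126 and 134 CPM in WT and 127, 128 and 117 CPM in Adamts18-/- glands. Atp5g1, from which part of the membrane ring of c subunits is made, had the highest of all core genes at 0.16 (SE 0.11, adjusted p = 0.99), with 36.4, 37.7 and 40.7 CPM against 40.4, 49.9 and 38.9 CPM. Neither gene separated the groups.

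Per kilobase of transcript, the levels differed between the complexes and were lowest in complex I. The median of the core genes was 71.2 CPM per kb in complex I, 107 in complex II, 169 in complex III, 232 in complex IV and 190 in complex V, from a lowest gene of 32.8 (Sdhc) to a highest of 546 (Atp5b). Atp5b was followed by Cox4i1 at 439 CPM per kb. These values use the shortest principal transcript of GENCODE M21 for each gene and depend on that choice.

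The core subunits shifted together in mice 2 and 3, in opposite directions, and not in mouse 1. In mouse 1 the log2 CPM difference, Adamts18-/- minus WT gland, had a median of 0.00 over the 73 genes. There 38 genes were lower and 35 higher in the Adamts18-/- gland, beside 52.5% and 47.5% of all tested genes. In mouse 2 the median was 0.12 and 61 of 73 were higher, where 49.2% of all tested genes were higher. In mouse 3 the median was -0.13 and all 73 were lower, where 50.8% of all tested genes were lower. The differences in mouse 3 ran from -0.34 to 0.00 and had the same sign in all 5 complexes, whose medians lay between -0.14 and -0.11. Another scaling shifts all genes of a gland alike: with the library size alone the median of all tested genes in mouse 2 was -0.08, and 27 rather than 12 core genes were lower there and 72 rather than 73 in mouse 3. Relative to the median of all tested genes, the core median was 0.12 in mouse 2 and -0.13 in mouse 3 under each scaling, which is so by construction. Each of these comparisons rests on 1 gland a side, without a test, and genes of the same gland are not replicates.

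**Figure D2:**
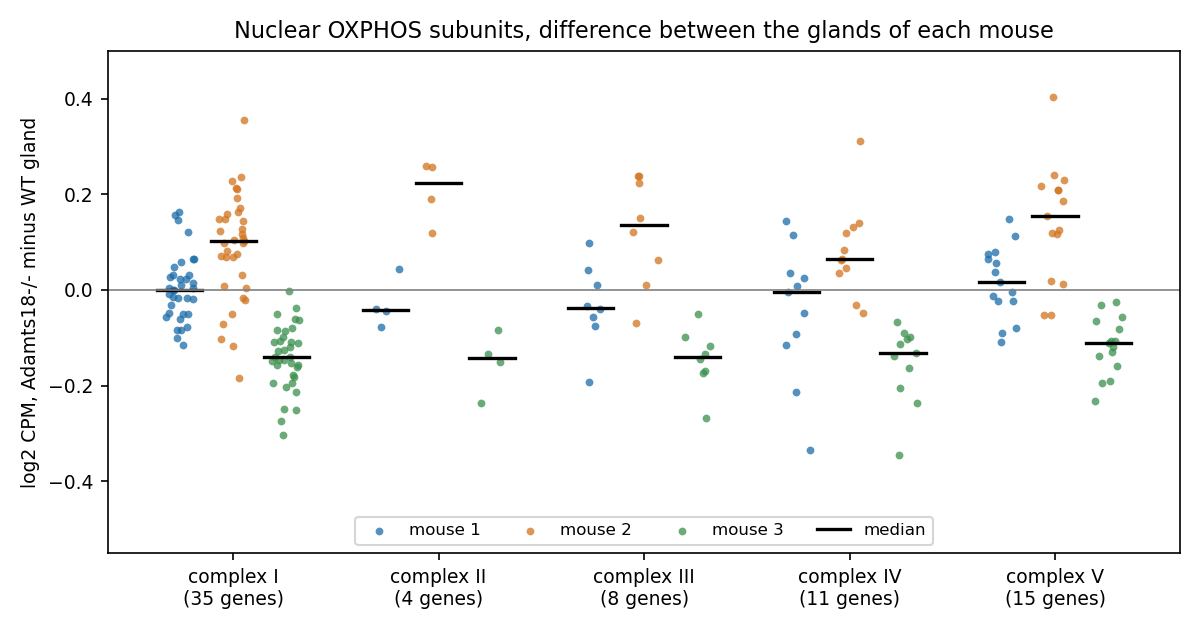
Difference in log2 CPM between the Adamts18-/- and the WT gland of each mouse for the 73 core nuclear subunits, grouped by complex; each point is a gene and the black lines are medians. In mouse 3 (green) all 73 genes lie below 0, in mouse 2 (orange) 61 lie above 0, and in mouse 1 (blue) the median is 0.00.

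Summed over the 73 genes, the core subunits amounted to 9471, 8775 and 8768 CPM in WT and 9288, 9656 and 8030 CPM in Adamts18-/- glands, and the groups overlapped. The ratio of Adamts18-/- to WT was 0.98, 1.10 and 0.92 in mice 1, 2 and 3. By complex the mouse 3 ratio was 0.91, 0.90, 0.91, 0.90 and 0.93 for complexes I to V. White adipocyte markers had a median log2 difference of -0.21, 0.19 and -0.31 in mice 1, 2 and 3. Fibroblast markers had 0.07, 0.42 and -0.50, and macrophage markers 0.04, 0.29 and -0.23. By sum, fibroblast and macrophage markers were instead higher in the Adamts18-/- gland of mouse 3, with ratios of 1.14 and 1.05. Luminal markers had medians of 0.02, -0.72 and -0.49, myoepithelial markers -0.30, -0.49 and -0.72, and endothelial markers -0.21, -0.04 and -0.31. Summed B cell markers stood at 143 CPM in the WT and 685 CPM in the Adamts18-/- gland of mouse 3 but between 10.3 and 16.8 CPM in the other 4 glands. The part of these cell types in the shift was not tested.

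Only 6 of 73 core genes, or 8.22%, were lower in the Adamts18-/- gland of all 3 mice, against 12.7% of all tested genes. They were Cox8a, Cox6a1, Atp5h, Ndufa6, Ndufa12 and Ndufb3, named after their values were seen. None was higher in all 3 mice, against 10.8% of all tested genes, which follows from all 73 being lower in mouse 3. For the same reason no core gene had all Adamts18-/- glands above all WT glands (2.31% of all tested genes). Nor did any core gene have all Adamts18-/- glands below all WT glands (2.63%).

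Few core genes differed between mice by the mouse terms, taken over both genotypes. The study states that the pairs came from independent experiments with separate donors. Host, donor and experiment therefore cannot be told apart in these terms. The mouse terms had an unadjusted p below 0.05 for 4 of 73 core subunits, or 5.48%, against 27.2% of all tested genes, and an adjusted p below 0.05 for 0, against 0.628%. The 4 genes, named after their values were seen, were Ndufa10, Ndufa12, Ndufv3 and Sdhb. For Sdhb, the iron-sulfur subunit of complex II, the levels were 140, 136 and 114 CPM in WT and 135, 148 and 107 CPM in Adamts18-/- glands, lowest in mouse 3 on both sides (adjusted p = 0.14 for the mouse terms by edgeR's quasi-likelihood test). Of the 3 genes that only share the name stem, none was called between genotypes.

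The mitochondrially encoded subunits were together more abundant than the nuclear ones, although mt-Nd4l, mt-Nd6 and mt-Atp8 were at low levels. The 13 genes took between 4.43% and 5.26% of all counts, while the 73 core genes took between 0.84% and 0.92%. The ratio of mitochondrial to core nuclear counts came to 5.13, 5.77 and 4.85 for WT and 5.58, 5.69 and 5.64 for Adamts18-/- glands, with overlapping groups. Per kilobase, mt-Co1 stood highest at 9544 CPM per kb, against 546 for the highest core gene. The mitochondrial genes are transcribed as long precursors from a single small genome and are therefore not independent of each other.

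Of the 12 mitochondrial genes that passed the filter, 10 had a log2 fold change above 0, and 7 were higher in the Adamts18-/- gland of all 3 mice. That is 58.3%, beside 10.8% of all tested genes. The 7 were mt-Atp6, mt-Co1, mt-Co2, mt-Co3, mt-Cytb, mt-Nd1 and mt-Nd5. With the library size as the only scaling it was 6, with mt-Nd2 in and mt-Cytb and mt-Nd1 out, beside 7.35% of all tested genes. The median fitted log2 fold change was 0.09, and no mitochondrial gene separated the groups. The median log2 difference of the 12 genes was 0.10, 0.13 and 0.07 in mice 1, 2 and 3. The summed level was 48568, 50599 and 42495 CPM in WT and 51804, 54939 and 45296 CPM in Adamts18-/- glands, a ratio of 1.07, 1.09 and 1.07 within the mice, and each of these differences was smaller than the range of the WT glands. With offsets for transcript length and GC content the median log2 fold change was 0.04 and 8 of 12 were above 0.

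**Figure D3:**
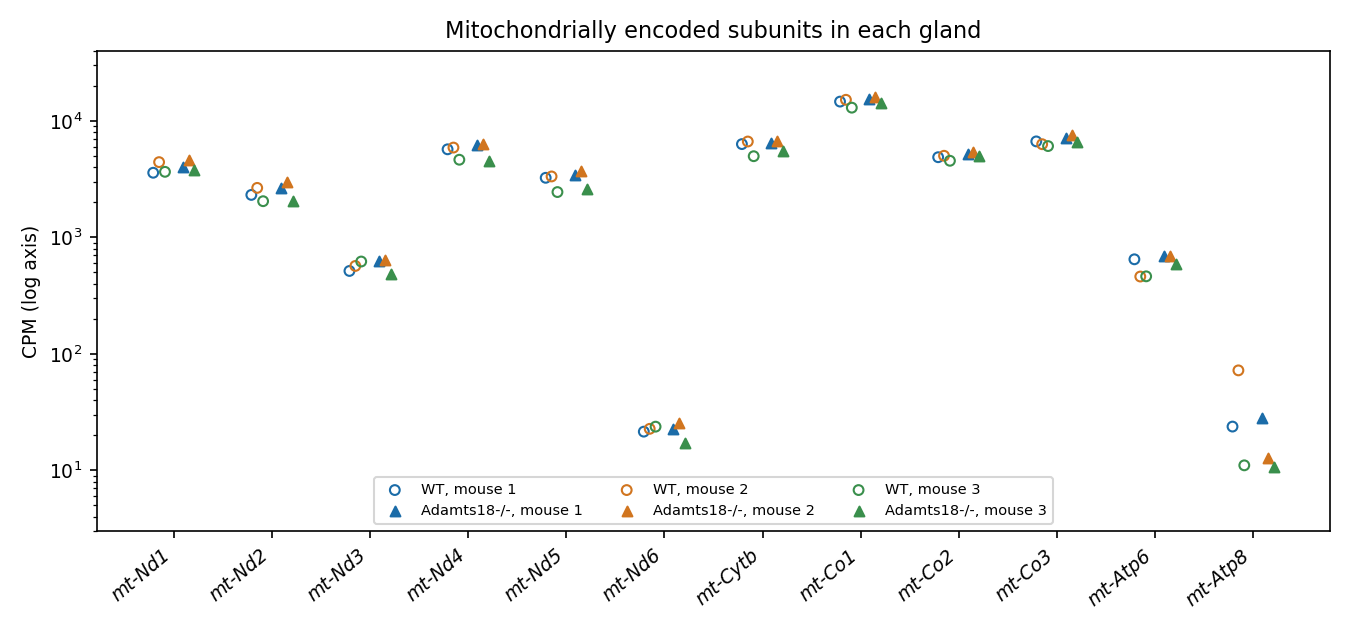
CPM, on a log axis, of the 12 tested mitochondrially encoded subunits in each gland; open circles are WT and filled triangles Adamts18-/- glands, colored by mouse. The levels span from 10.6 CPM for mt-Atp8 to 16094 CPM for mt-Co1, the circles and triangles of each gene overlap, and the WT gland of mouse 2 stands apart at 72.2 CPM of mt-Atp8.

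For complex IV, mt-Co1, the catalytic subunit (chrM:5328-6872), was at 14643, 15173 and 12986 CPM in WT and 15418, 16094 and 14161 CPM in Adamts18-/- glands. Each Adamts18-/- gland lay above its own partner, but the groups overlapped (log2 fold change 0.09, SE 0.17). mt-Co2 and mt-Co3, the other 2 catalytic core subunits, had log2 fold changes of 0.11 (SE 0.14) and 0.16 (SE 0.15). mt-Co2 lay between 4546 and 5416 CPM and mt-Co3 between 6079 and 7629 CPM over all glands.

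For complex III, mt-Cytb, the cytochrome b, was at 6320, 6652 and 4975 CPM in WT and 6471, 6775 and 5515 CPM in Adamts18-/- glands (log2 fold change 0.07, SE 0.15). For complex I, the membrane subunits mt-Nd1, mt-Nd2, mt-Nd4 and mt-Nd5 had log2 fold changes of 0.08 (SE 0.14), 0.11 (SE 0.13), 0.07 (SE 0.15) and 0.11 (SE 0.13). Mouse 3 had the lowest mt-Nd2, mt-Nd4 and mt-Nd5 levels on both sides. mt-Nd3 was at 515, 569 and 621 CPM in WT and 630, 639 and 487 CPM in Adamts18-/- glands, up in mice 1 and 2 and down in mouse 3 (log2 fold change 0.04, SE 0.16).

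The remaining complex I genes were counted at a much lower level. mt-Nd6, which lies on the opposite strand of the genome and shares 14 bases with mt-Nd5, was at 21.5, 22.7 and 23.7 CPM in WT and 22.9, 25.5 and 17.1 CPM in Adamts18-/- glands (log2 fold change -0.07, SE 0.15). mt-Nd4l had 0 or 1 read in every gland although its neighbor mt-Nd4, with which it shares 7 bases, had between 261265 and 397702 reads. It did not pass the filter. A count of 0 allows up to 0.0495 CPM in the Adamts18-/- gland of mouse 2, the highest such limit among the glands with 0 reads, for counting error only. How reads over shared bases were assigned is not given in the sources used here, and the part of that step in the low counts was not tested.

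For complex V the genes mt-Atp8 (chrM:7766-7969) and mt-Atp6 (chrM:7927-8607), both parts of the membrane sector of the ATP synthase, overlap. The 43 bases they share, read from the GENCODE M21 transcripts (GRCm38, chrM:7927-7969, plus strand), are printed with the start codon of mt-Atp6 and the stop codon of mt-Atp8 in capitals, since a read that covers them belongs to both genes.
mt-Atp8 and mt-Atp6: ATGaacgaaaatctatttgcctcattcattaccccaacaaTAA

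mt-Atp6 was called higher, as 1 of the 12 tested mitochondrial genes, and no other member of the whole set was called. Of all tested genes, 1.17% were called higher and 1.84% lower, so a single call in a set of this size is no result about its members. The level of mt-Atp6 was 648, 461 and 463 CPM in WT and 693, 691 and 595 CPM in Adamts18-/- glands. It was higher in each of the 3 mice, but the WT gland of mouse 1 lay above the Adamts18-/- gland of mouse 3. The log2 fold change was 0.35 with an SE of 0.13, and edgeR's quasi-likelihood test gave an unadjusted p of 0.0491 (adjusted p = 0.99). The call was lost in 8 of 13 alternative analyses, among them the fit without the mouse as a block, with an unadjusted p of 0.124, and the omission of any 1 of the 3 mice, with an unadjusted p from 0.0814 to 0.158.

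mt-Atp8 behaved differently and rested on a single gland. It was at 23.8, 72.2 and 11.05 CPM in WT and 28.1, 12.8 and 10.6 CPM in Adamts18-/- glands (log2 fold change -0.73, SE 0.61, adjusted p = 0.99). The WT gland of mouse 2 had 4426 reads on mt-Atp8, against 622 to 1658 in the other 5 glands. Without mouse 2 the log2 fold change was 0.09 (SE 0.14). Of the reads on the pair of genes, mt-Atp8 took 13.5% in that gland and between 1.76% and 3.89% in the others.

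Of the 9 restricted isoforms 7 were tested, and 0 of these were called in the analysis of all 3 mice. Of all tested genes, 1.84% were called lower and 1.17% higher. Within the mice, however, 3 of the isoforms had large differences that went in opposite directions. Cox7b2 and Cox8c, known from testis, were at 0 reads in all glands, and the other 7 passed the filter on low counts. Cox6a2, Cox7a1, Cox8b and Cox6b2 all lie on chromosome 7, but far apart.

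Cox6a2 (chr7:128205435-128206387, minus strand, GRCm38), the heart and skeletal muscle isoform of subunit VIa, was at 0.86, 2.23 and 4.90 CPM in WT and 16.4, 23.3 and 4.02 CPM in Adamts18-/- glands. In mice 1 and 2 it was higher by 4.2 and 3.36 on the log2 scale in the Adamts18-/- gland, and in mouse 3 the difference was -0.28. The fitted log2 fold change was 2.56 with an SE of 1.06 and a 95% confidence interval from -0.23 to 5.34, and edgeR's quasi-likelihood test gave an unadjusted p of 0.0642 (adjusted p = 0.99). Cox6a2 was past the call rule without the mouse as a block, with DESeq2, with limma-voom and without the filter on low counts, with an unadjusted p of 0.0295, 0.0182, 0.0357 and 0.0387.

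Cox7a1 (chr7:30184144-30186078, plus strand), the muscle isoform of subunit VIIa whose promoter is printed above, followed the same pattern at 2.24, 1.97 and 3.04 CPM in WT and 6.25, 7.01 and 2.02 CPM in Adamts18-/- glands (log2 fold change 0.94, SE 0.54, adjusted p = 0.99). Cox8b (chr7:140898945-140900446, minus strand), the isoform of subunit VIII found in muscle and brown fat, was at 12.1, 10.7 and 13.5 CPM in WT and 17.7, 16.1 and 9.16 CPM in Adamts18-/- glands (log2 fold change 0.20, SE 0.27, adjusted p = 0.99). For all 3 genes the Adamts18-/- gland was above its partner in mice 1 and 2 and below it in mouse 3. Without mouse 3, all 3 were called higher: Cox6a2 with a log2 fold change of 3.78 (SE 0.24), Cox7a1 with 1.66 (SE 0.19) and Cox8b with 0.57 (SE 0.11). Without mouse 1 or without mouse 2, none of the 3 was called, and the log2 fold changes were 1.55 (SE 1.05) and 1.92 (SE 1.47) for Cox6a2, 0.63 (SE 0.68) and 0.46 (SE 0.61) for Cox7a1, and 0.01 (SE 0.34) and 0.00 (SE 0.33) for Cox8b. In the fit without mouse 3, which rests on 2 mice, 3.34% of all tested genes were called higher and 1.54% had an adjusted p below 0.05, and the adjusted p of edgeR's quasi-likelihood test was 0.00555, 0.0226 and 0.14 for the 3 isoforms.

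**Figure D4:**
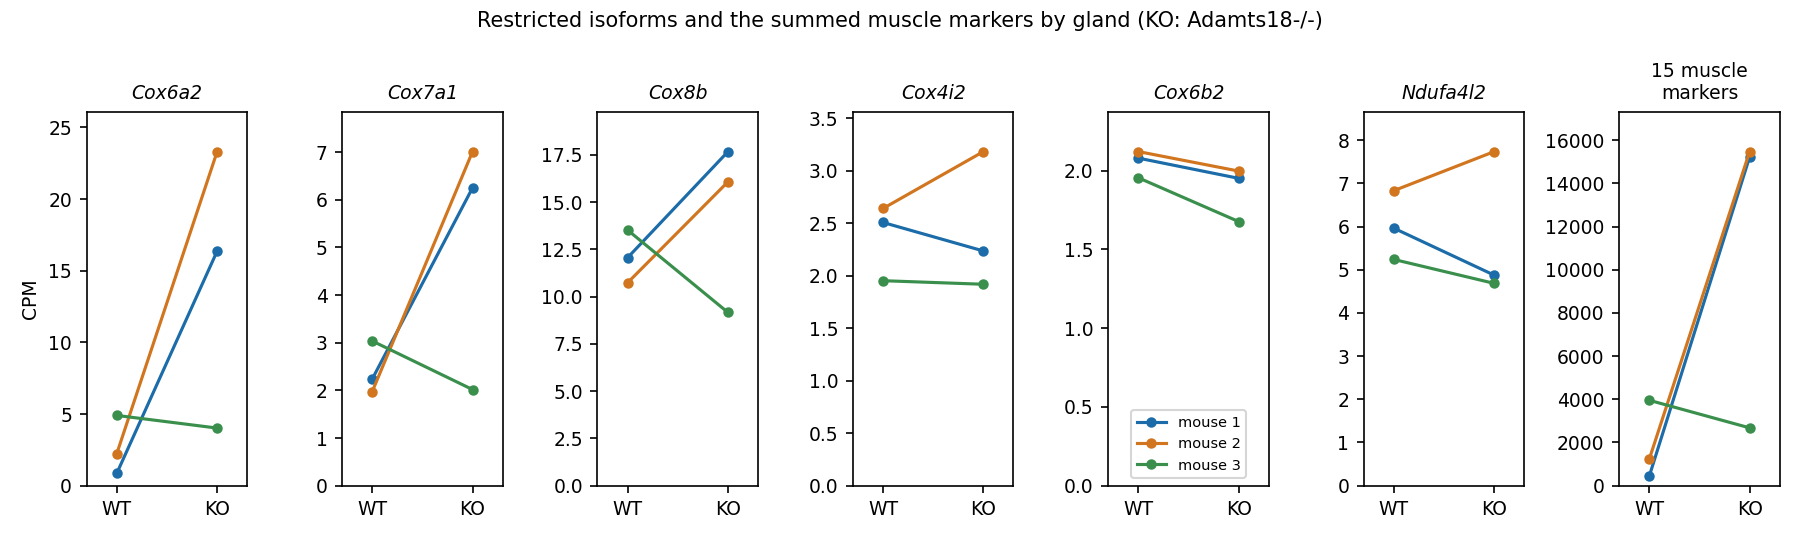
CPM of 6 restricted isoforms and the summed CPM of 15 skeletal muscle markers in the WT and the Adamts18-/- (KO) gland of each mouse, joined by a line per mouse; each panel has its own axis from 0. Cox6a2, Cox7a1, Cox8b and the muscle markers are higher in the KO gland in mice 1 and 2 and lower in mouse 3, whereas Cox4i2, Cox6b2 and Ndufa4l2 stay within 1.68 to 7.74 CPM.

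Skeletal muscle markers differed in the same mice and directions as these isoforms. The 15 markers, all of which passed the filter and 0 of which were called, summed to 442, 1227 and 3955 CPM in WT and 15224, 15474 and 2677 CPM in Adamts18-/- glands, a ratio of 34.4, 12.6 and 0.68 within the mice. The most abundant, Myh4, a myosin heavy chain of fast fibers, was at 94.7, 328 and 1197 CPM in WT and 4972, 4686 and 821 CPM in Adamts18-/- glands. Markers of brown and beige fat summed to no more than 21.2 CPM in any gland, and the ratio of the sums was 0.95, 0.91 and 0.76 in mice 1, 2 and 3. The most abundant of them, Cidea, had log2 differences of -0.18, -0.26 and -0.41. The median of the 4 tested markers was 0.22, 0.08 and -0.30, with the same signs as the 3 isoforms. Muscle was not among the cells named by the labels, and its part in the isoform levels was not tested.

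As a share of the isoform pair, on the scale of CPM per kb, Cox6a2 made up 0.48%, 1.34% and 3.12% of Cox6a1 and Cox6a2 in WT and 9.71%, 12.7% and 2.78% in Adamts18-/- glands. Cox7a1 made up 4.11%, 3.87% and 5.53% of Cox7a1 and Cox7a2 in WT and 10.5%, 12.03% and 4.38% in Adamts18-/- glands. Cox8b made up 8.25%, 8.67% and 11.6% of Cox8a and Cox8b in WT and 14.2%, 12.8% and 8.75% in Adamts18-/- glands. In every gland the widely expressed partner was therefore the major transcript. The partners Cox6a1, Cox7a2 and Cox8a had log2 fold changes of -0.12 (SE 0.07), -0.05 (SE 0.09) and -0.16 (SE 0.09).

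The other restricted isoforms did not share this pattern. Cox4i2, a hypoxia-related isoform known from lung, was at 2.51, 2.64 and 1.95 CPM in WT and 2.24, 3.18 and 1.92 CPM in Adamts18-/- glands (log2 fold change 0.03, SE 0.18). Ndufa4l2, a hypoxia-induced relative of Ndufa4, was at 5.96, 6.83 and 5.24 CPM against 4.88, 7.74 and 4.69 CPM (log2 fold change -0.09, SE 0.16). Cox6b2, the testis isoform of subunit VIb, was at 2.08, 2.12 and 1.95 CPM against 1.95, 2.00 and 1.68 CPM (log2 fold change -0.13, SE 0.17). Atp5l2, a paralog of subunit g of complex V, had between 5 and 13 reads in each gland.

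The genes around the respiratory chain were examined in lists. Of 288 distinct tested genes in 8 lists (assembly factors, electron carriers, citric acid cycle with pyruvate dehydrogenase, fatty acid oxidation, glycolysis, regulators of mitochondrial DNA and biogenesis, mitochondrial ribosome and cytosolic ribosome), 0 were called lower and 1 higher, beside 1.84% and 1.17% of all tested genes. That gene was Pgk1, the glycolytic phosphoglycerate kinase, at 112, 102 and 130 CPM in WT and 148, 153 and 145 CPM in Adamts18-/- glands (log2 fold change 0.39, SE 0.11, adjusted p = 0.99). All its Adamts18-/- values lay above its WT values, as for 2.31% of all tested genes. Its unadjusted p was 0.0161 by edgeR's quasi-likelihood test, 0.0903 without mouse 1 and 0.0684 without mouse 2. The median log2 fold change was 0.02 for the 46 tested assembly factors, 0.01 for the 11 electron carriers, 0.00 for the 19 citric acid cycle genes, -0.06 for the 16 genes of fatty acid oxidation, 0.12 for the 18 of glycolysis and 0.01 for the 76 mitochondrial ribosomal proteins.

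Within the mice, some of these lists followed the order seen for the core subunits. The citric acid cycle genes had a median log2 difference of -0.04, 0.20 and -0.14 in mice 1, 2 and 3, the electron carriers 0.03, 0.20 and -0.11, and fatty acid oxidation -0.05, 0.12 and -0.23. The assembly factors followed that order with smaller differences of 0.01, 0.07 and -0.05. The mitochondrial ribosome did not, with 0.01, 0.02 and 0.01, and the cytosolic ribosome had the opposite order with 0.03, -0.12 and 0.14. Glycolysis had 0.16, 0.45 and -0.21. Without mouse 3, 11 genes of the lists were called higher rather than 1, beside 3.34% of all tested genes in that fit. All but the assembly factor 2310003L22Rik and Rpl3l of the cytosolic ribosome belonged to glycolysis, a list of 18 genes tested with all 3 mice. These glycolysis genes were Pfkm, Aldoa, Tpi1, Gapdh, Pgk1, Pgam2, Eno3, Pkm2 and Ldha. The highest log2 fold changes among the 11 were 4.14 for Pgam2, 3.43 for Eno3 and 3.39 for Rpl3l. Pgam2, Eno3 and Rpl3l are expressed strongly in skeletal muscle, and the part of muscle in the 11 calls was not tested. All of the 11 but Pgk1 are named after their values were seen.

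**Figure D5:**
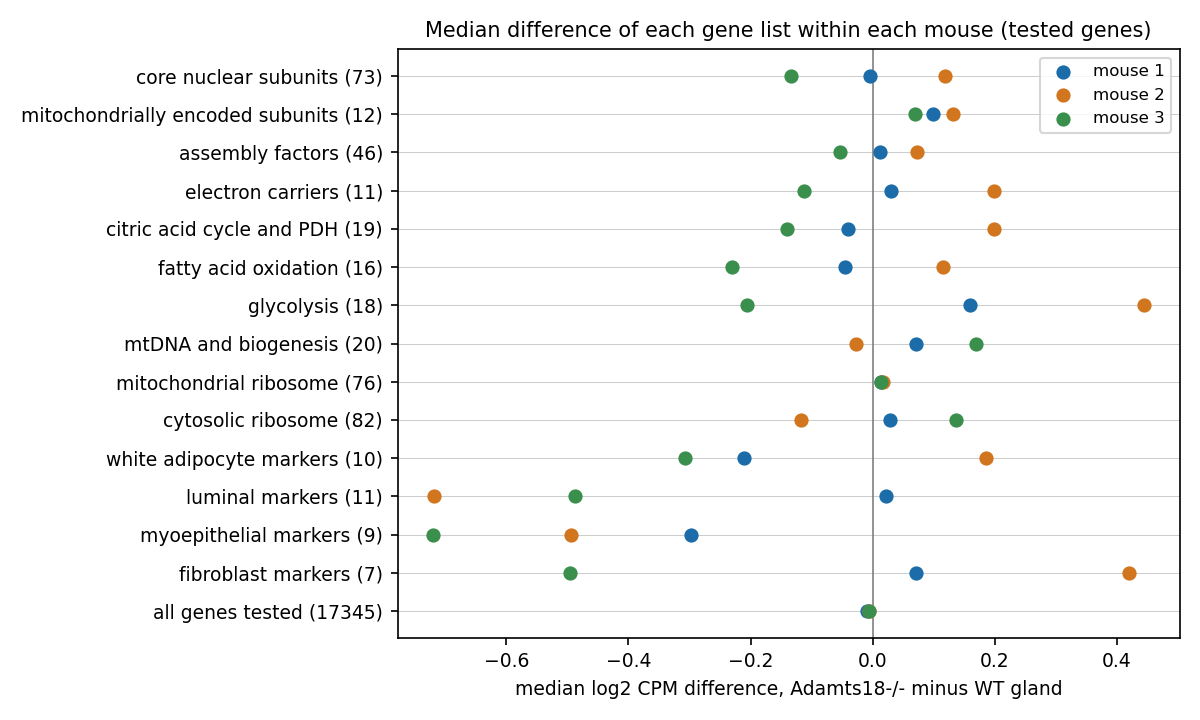
Median difference in log2 CPM between the Adamts18-/- and the WT gland of each mouse for 14 gene lists and for all 17345 tested genes, with the number of tested genes in parentheses; each point is a mouse. The core subunits, assembly factors, electron carriers, citric acid cycle and fatty acid oxidation lie below 0 in mouse 3 and above in mouse 2. The mitochondrially encoded subunits lie above 0 in all 3 mice, and all tested genes lie at 0.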

How the data were processed

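RNA from 6 glands, 3 WT and 3 Adamts18-/-, had been sequenced as single-end reads of 85 bases. The authors deposited raw read counts per gene symbol without normalization. The submitters' processing notes name bcl2fastq 2.18, TopHat2 2.0.11, featureCounts 1.6.2, edgeR and the mm9 build, while the annotation, the strand setting and the treatment of reads with several matches are not given in the sources used here. Respiratory chain genes have many pseudogenes, and reads shared with them, or with an antisense gene, cannot be told apart. Positions and lengths are from GENCODE M21 (GRCm38), and 29283 of 34590 symbols were matched to it. The column totals include every row, and 0 columns belonged to other samples.

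Counts were fitted in R 4.3.3 with edgeR 4.0.16 (filterByExpr, TMM scaling, quasi-likelihood test, mouse and genotype as terms) over 17345 genes, with Benjamini-Hochberg adjustment. The standard error is the absolute log2 fold change divided by the root of F, and log2 CPM within mice used a prior count of 2. The script was tested on simulated data. Glands of the same number come from the same host per the labels and the study's text, and their deviations from the group means correlated at 0.512, 0.505 and 0.639. No 2 libraries were near duplicates (lowest chi-square per degree of freedom 42.1). The study states that the 3 pairs came from independent experiments with separate donors.

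Alternatives were DESeq2 1.42.0, limma-voom (limma 3.58.1), leaving out the block, scaling by RLE, upper quartile, library size or without mitochondrial reads, no low-count filter or a minimum of 10 reads per gland, each mouse left out, and offsets for transcript length and GC content (mgcv 1.9.3), known for 89.2% of tested genes. The member rule, the classes and the gene lists (the 8 lists named in the report, and markers of skeletal muscle, brown and beige adipocytes, white adipocytes, luminal epithelium, myoepithelium, B cells, T cells, macrophages, fibroblasts, endothelium and erythroid cells) were chosen with earlier results of these data known, and Atp5l2 was put among the restricted isoforms after the counts were seen. Genes were named by rule: every mitochondrial gene and restricted isoform, per complex the core gene with the highest mean CPM and those with the lowest and highest log2 fold change, members past the call rule, Adamts18, up to 3 called genes a list and the most abundant gene of a cell type list. Other names were chosen after their values were seen or are the widely expressed partners of the isoforms. A result that the rule would name is not reported here.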

Additional observations from a re-analysis of the deposited data

How the results depend on the processing

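The core subunits stayed at 0 calls in both directions under all 13 alternatives, and their log2 fold changes stayed between -0.19 and 0.17 with 3 mice and between -0.25 and 0.28 with 2 mice. Their median of -0.01 ranged from -0.06 to 0.06 when a mouse was left out and so took either sign. The number of core subunits that differ between mice by adjusted p stayed at 0 under the 4 alternatives tried. The 1 mitochondrial call became 0 without the replicate block, with RLE, upper quartile or library size scaling, with length and GC offsets, and in each fit without 1 mouse (0 to 0). Under library size scaling mt-Atp6 missed the fold threshold and not the p threshold. The mitochondrial median of 0.09 was 0.036 with the offsets, 0.088 without the replicate block and 0.082 to 0.123 with a mouse left out. The restricted isoforms went from 0 calls to 1 (Cox6a2) without the replicate block, with DESeq2, with limma-voom and without the filter, and gave 0 to 3 with a mouse left out. The pathway lists, whose alternatives were added after seeing the data, went from 1 call to 5 without the replicate block, 7 with DESeq2, 2 with limma-voom, 5 without the filter, and 0 to 11 with a mouse left out. The block changed no other call of a member. The scalings within each mouse were also added after seeing the data, and library size, which shifts all genes of a gland alike, moved core genes lower in mouse 2 from 12 to 27, with the core median relative to all tested genes at 0.12 throughout. Of 427 values of the 33 named members under the alternatives, 387 kept their direction and call, 25 small uncalled values took the other sign, 8 lost and 7 gained a call, and 0 called values reversed. The cause of these changes was not tested. With 3 pairs, core differences below about 0.22 on the log2 scale could not be resolved.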

Other observations

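Other cell types varied between the glands as well. Summed T cell markers were at 36.0, 72.5 and 183 CPM in WT (mouse 1, mouse 2, mouse 3) and at 32.0, 46.9 and 501 CPM in Adamts18-/- glands, highest in the Adamts18-/- gland of mouse 3. Lck, a kinase of T cells, was at 37.7 CPM in the WT and 124 CPM in the Adamts18-/- gland of that mouse, and Cd79a, a component of the B cell receptor, at 37.1 and 154 CPM. Macrophage markers summed to between 1190 and 2187 CPM, endothelial markers to between 580 and 935 CPM and erythroid markers to between 251 and 525 CPM, and none of these lists had a called member. Over all glands, their most abundant markers lay at 642 to 1407 CPM for Lyz2, 155 to 239 CPM for Pecam1 and 132 to 268 CPM for Hbb-b1. The regulators of mitochondrial DNA and biogenesis had a median log2 difference of 0.07, -0.03 and 0.17 in mouse 1, mouse 2 and mouse 3, above 0 in mouse 3 where all 73 core subunits were lower.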
